A study of Oryza sativa with 14 samples.

Results

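Light reaches the rice seedling through receptors that tell it when to green, and a small set of transcription factors then turns on the chloroplast genes. The 8 genes described here are the phytochromes PHYA, PHYB and PHYC, the cryptochromes CRY1a, CRY1b and CRY2, and the Golden2-like regulators GLK1 and GLK2, chosen by their locus identifiers out of 38978 genes in the expression table. Phytochromes bind a bilin pigment and switch between a red-absorbing and a far-red-absorbing form, while cryptochromes carry a flavin and respond to blue light. In Arabidopsis, active receptors hold back the COP1 ubiquitin ligase and remove phytochrome-interacting bHLH factors. GLK proteins act further down: in maize, rice and Arabidopsis they switch on antenna and chlorophyll synthesis genes in leaf cells.

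The RNA came from whole seedlings of wild type (WT) rice, cultivar Kitaake, and of osnat10, a line named after the cytidine acetyltransferase OsNAT10. Both were raised on Yoshida nutrient solution in short days of 10 h light and 14 h dark. RNA-seq had 3 biological replicates of each genotype, and the 8 acRIP-seq libraries (pull-down with an ac4C antibody, and input) were not analysed here. The labels do not give the allele, the number of independent lines, the age of the seedlings or the hour of sampling. No gene in the table is annotated as OsNAT10, so the level of the targeted gene was not checked. In seedling RNA, fewer cells of a type and less RNA per cell cannot be told apart.

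The libraries held 13688629 to 15583776 reads, recovered from the RPKM steps, and WT replicate 1 stood apart from WT replicates 2 and 3. Across all tested genes WT replicate 1 correlated at r = 0.917 and 0.902 with the other WT libraries and at 0.931 to 0.9445 with the osnat10 libraries. WT replicates 2 and 3 correlated at 0.9345 with each other and at 0.887 to 0.925 with the osnat10 libraries. WT replicate 1 was thus the WT library nearest to osnat10, and all WT pairs were looser than the osnat10 pairs. The osnat10 libraries correlated at 0.973 to 0.980 with each other (genes are not independent replicates). Marker genes of leaf and of root were present in each library, in unequal amounts. The summed RPKM of 5 Rubisco small subunit genes ran from 4615 to 16050 in WT and from 5437 to 7632 in osnat10, and that of 8 root markers from 418.7 to 767.7 in WT and from 945.8 to 1150 in osnat10. The root markers did not move together: 6 of the 8 had positive and 2 negative log2 fold changes. Mean RPKM in WT and osnat10 was 224 and 590 for RCc3 and 26.9 and 73.3 for RCc2. It was 214 and 166 for LSI1 and 130 and 104 for LSI2. No defining root marker (RCc2, RCc3, LSI1, LSI2) was at 0 in any library. The part of these differences in the results on receptors and GLK genes was not tested. The main results that rest on WT replicate 1 are given with and without it.

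All 8 genes were expressed in every library, and none passed the test between genotypes. Levels are RPKM, in which reads are divided by gene length and by the library total. They were compared as log2(RPKM + 0.5) with limma (linear models with moderated variances), and calls were made where the p-value adjusted over 24380 tested genes fell below 0.05. By this rule 0 of the 8 members were called lower in osnat10, against 0.0287% of all tested genes, and 0 were called higher, against 0.123%. In either direction 0.152% of all tested genes were called. Among the members 1, CRY1b, had an unadjusted p under 0.05, against 19.2% of all tested genes. Their log2 fold changes were negative for 5 members and positive for 3, with a median of -0.29, whereas the median over all tested genes was 0.11. Groups without overlap, meaning every osnat10 value on the same side of every WT value, occurred in 2 of 8 members, CRY1b and CRY2, against 25.0% of all tested genes. In the authors' deposited table, 1 of the 7 members with an adjusted p, CRY1b, was under 0.05, against 6.20% of the genes there.

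**Figure D1:**
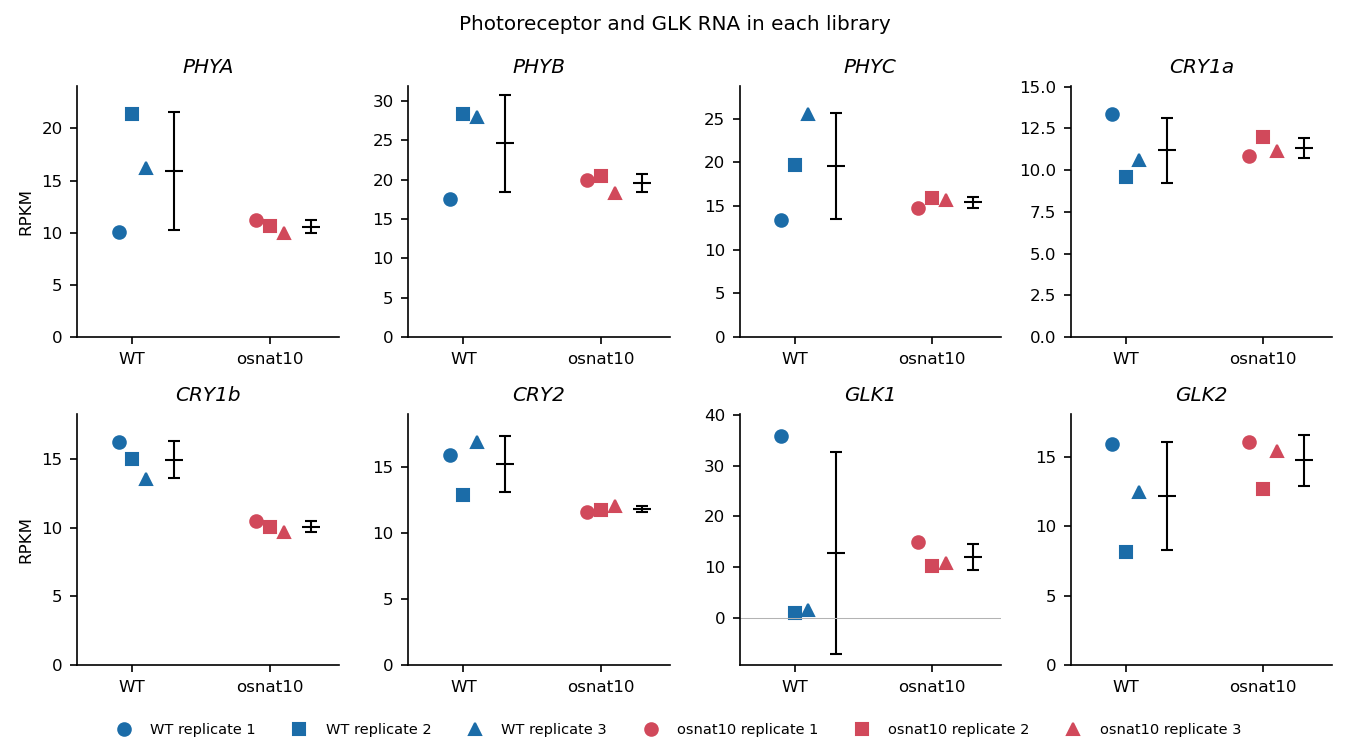
RPKM of the 8 genes in WT (blue) and osnat10 (red) libraries, with a marker shape per replicate and the mean ± SD (n = 3) in black beside each group, the WT bar of GLK1 reaching below 0. CRY1b is lower in every osnat10 library than in every WT library, while GLK1 spans 1.06 to 35.7 RPKM within WT.

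The phytochromes come first among the receptors. PHYA (Os03g0719800), the receptor for far-red and very weak light, measured 10.1 RPKM in WT replicate 1, 21.4 in WT replicate 2 and 16.2 in WT replicate 3, and the osnat10 libraries measured 11.2, 10.6 and 9.97 RPKM. WT replicate 1 lay within the osnat10 values, and the other 2 WT libraries lay above all of them. The means were 15.9 ± 5.65 and 10.6 ± 0.617 RPKM (SD, n = 3), and the log2 fold change was -0.50 (SE 0.27, 95% interval -1.13 to 0.12, limma adjusted p = 0.35).

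PHYB (Os03g0309200), the main red-light receptor, measured 17.5, 28.4 and 28.0 RPKM in WT and 19.9, 20.5 and 18.4 RPKM in osnat10. PHYC (Os03g0752100), annotated in control of de-etiolation and flowering, measured 13.4, 19.7 and 25.5 RPKM in WT and 14.8, 15.9 and 15.7 RPKM in osnat10. For both genes WT replicate 1 was the lowest of the 6 libraries, WT replicates 2 and 3 were the highest, and the osnat10 libraries lay between. The log2 fold change was -0.29 for PHYB (SE 0.22, adjusted p = 0.49) and -0.28 for PHYC (SE 0.24, adjusted p = 0.55).

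The 3 phytochrome genes thus ranked the libraries in much the same way. Together they summed to 41.0 RPKM in WT replicate 1, to 69.4 RPKM in WT replicate 2 and to 69.8 RPKM in WT replicate 3, while osnat10 libraries summed to 44.0 to 47.0 RPKM. PHYB made up 40.2% to 43.6% of that sum in all 6 libraries. The mean of WT replicates 2 and 3 was 1.86 times the value in WT replicate 1 for PHYA, 1.61 times for PHYB and 1.68 times for PHYC. With WT replicate 1 left out, which keeps only the higher WT values, PHYA and PHYB were called as lower (log2 fold changes -0.79 and -0.52, limma adjusted p = 0.035 and 0.049), and PHYC was not (-0.52, adjusted p = 0.083). In that fit 4.84% of all tested genes were called lower. In this fit the genotypes cannot be told apart from the unequal WT libraries.

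Among the cryptochromes, CRY1b had the clearest difference. It encodes a blue-light receptor of the CRY1 type, which limits shoot elongation in rice seedlings. CRY1b (Os04g0452100) measured 16.3, 15.0 and 13.6 RPKM in WT and 10.5, 10.1 and 9.71 RPKM in osnat10. Every osnat10 library lay below every WT library, and the WT libraries differed from each other by 1.20 times at most. The osnat10 mean was 0.674 times the WT mean, with a log2 fold change of -0.54 (SE 0.16, 95% interval -0.92 to -0.17, unadjusted p = 0.011, limma adjusted p = 0.14). In the authors' deposited table the log2 fold change of CRY1b was -0.69 (SE 0.21, adjusted p = 0.027), and 3.79% of the genes there were called lower. Without WT replicate 1 the log2 fold change was -0.48 (adjusted p = 0.083).

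CRY2 (Os02g0625000), annotated in promotion of flowering time, measured 16.0, 12.9 and 17.0 RPKM in WT and 11.6, 11.8 and 12.1 RPKM in osnat10. Its groups did not overlap either, though the gap between WT replicate 2 and osnat10 replicate 3 was small. The log2 fold change was -0.35 (SE 0.17, adjusted p = 0.31). CRY1a (Os02g0573200), the second CRY1-type gene, measured 13.4, 9.62 and 10.6 RPKM in WT and 10.8, 12.0 and 11.1 RPKM in osnat10, with osnat10 inside the WT range. Its log2 fold change was 0.03 (SE 0.19, 95% interval -0.40 to 0.46, adjusted p = 0.95), and the sign turned under 5 of 14 alternative settings. Together the 3 cryptochrome genes summed to 37.5 to 45.6 RPKM in WT and to 32.9 to 33.8 RPKM in osnat10, and CRY1a took 25.7% to 29.3% of the sum in WT and 32.9% to 35.4% in osnat10.

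Ratios of RPKM between members within a library do not depend on library scaling, and 5 were compared. The ratio of CRY1b to CRY1a RPKM was 1.22, 1.56 and 1.28 in WT and 0.966, 0.839 and 0.873 in osnat10. By RPKM, CRY1b was thus the higher of the pair in each WT library and CRY1a in each osnat10 library. Exact 95% Poisson intervals, of counting error only, overlapped between CRY1b and CRY1a in osnat10 replicates 1 and 3. They were 9.80 to 11.2 against 9.96 to 11.8 RPKM in osnat10 replicate 1. In osnat10 replicate 3 they were 9.08 to 10.38 against 10.26 to 12.05 RPKM. The difference in log2(RPKM + 0.5) ratio was -0.57, with p = 0.1 in a two-sided exact permutation test, the smallest p that 3 against 3 libraries allow (0.17 adjusted over the 5 ratios). The ratio of CRY2 to CRY1a was 1.19, 1.34 and 1.60 in WT and 1.07, 0.983 and 1.09 in osnat10, again without overlap (difference -0.37, exact p = 0.1, adjusted 0.17).

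Within the phytochromes, PHYA to PHYB was 0.576, 0.754 and 0.579 in WT and 0.562, 0.518 and 0.543 in osnat10. These groups did not overlap (difference -0.21, exact p = 0.1, adjusted 0.17), but WT replicates 1 and 3 lay close to the osnat10 values, and the difference was -0.087 without WT replicate 2. PHYC to PHYB was 0.767, 0.693 and 0.912 in WT and 0.741, 0.774 and 0.856 in osnat10, with osnat10 inside the WT range (difference 0.008, exact p = 0.9, adjusted 0.9).

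**Figure D2:**
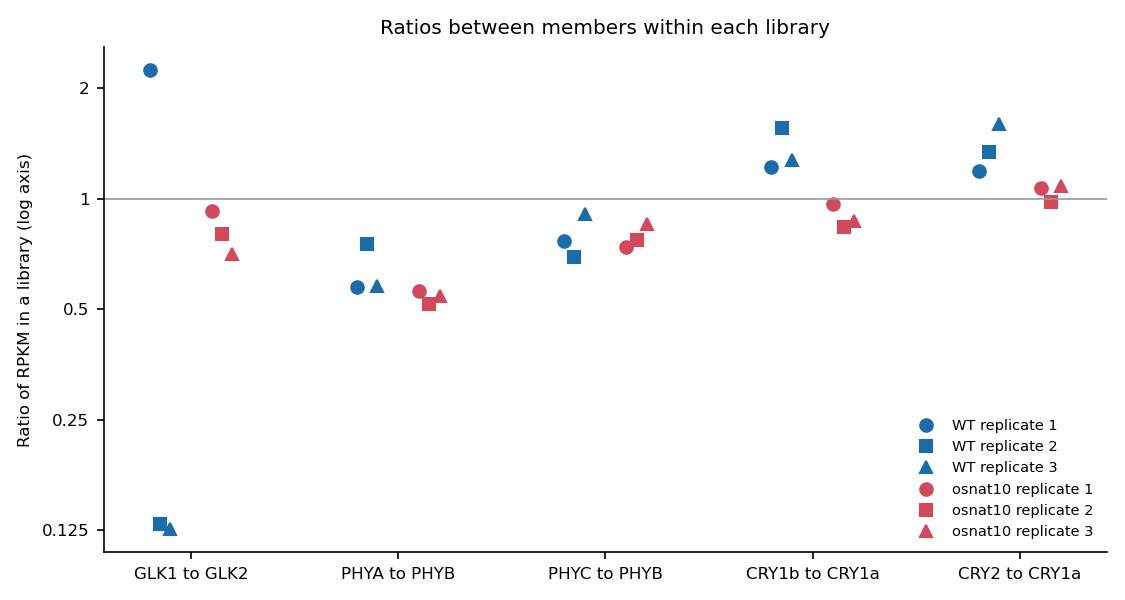
Ratio of the RPKM of paired genes within each library, on a log axis, with WT in blue and osnat10 in red and a marker shape per replicate. CRY1b to CRY1a lies above 1 in every WT library and below 1 in every osnat10 library, while GLK1 to GLK2 ranges from 0.126 to 2.25 within WT.

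GLK1 and GLK2 behaved unlike each other. GLK1 (Os06g0348800), the regulator listed as OsGLK1 in the table, measured 35.7 RPKM in WT replicate 1 but 1.06 in WT replicate 2 and 1.56 in WT replicate 3, and the osnat10 libraries measured 15.0, 10.2 and 10.9 RPKM. WT replicate 1 was thus 33.7 times WT replicate 2, and all osnat10 libraries lay in the gap between them. The values rest on 1191, 38 and 59 reads in WT and on 352 to 498 in osnat10. Exact 95% Poisson intervals, which cover counting error only, were 33.7 to 37.8 RPKM in WT replicate 1, 0.75 to 1.46 in WT replicate 2 and 1.19 to 2.02 in WT replicate 3, so counting error did not span the difference within WT.

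The sign of the GLK1 comparison depended on the averaging. The arithmetic means were 12.8 ± 19.9 RPKM in WT and 12.0 ± 2.58 RPKM in osnat10, slightly lower in osnat10. On the log2(RPKM + 0.5) scale the fold change was 1.34 in the other direction (SE 1.06, 95% interval -1.13 to 3.80, limma adjusted p = 0.53). The authors' deposited table gives -0.35 (SE 1.43) for GLK1, with no p-value. Without WT replicate 1, which keeps only the low WT values, GLK1 was called higher, at a log2 fold change of 2.78 (SE 0.25, adjusted p = 0.0027), a fit in which 6.28% of all tested genes were called higher. Without WT replicate 2 the log2 fold change was 0.51 (adjusted p = 0.86), and without WT replicate 3 it was 0.72 (adjusted p = 0.77).

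GLK2 (Os01g0239000) carries no symbol in the table and is listed there as a hypothetical conserved gene. It measured 15.9, 8.15 and 12.4 RPKM in WT and 16.1, 12.7 and 15.5 RPKM in osnat10. WT replicate 1 lay with the osnat10 values, and WT replicates 2 and 3 lay below all of them. The log2 fold change was 0.31 (SE 0.26, 95% interval -0.28 to 0.90, limma adjusted p = 0.54). Without WT replicate 1, which held the highest WT value, the log2 fold change of GLK2 was 0.52 (limma adjusted p = 0.17). Within WT its highest value was 1.95 times its lowest, compared with 33.7 times for GLK1.

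The balance of the GLK pair therefore turned between libraries. Of the summed RPKM of the pair, GLK1 made up 69.2% in WT replicate 1 but 11.5% in WT replicate 2 and 11.2% in WT replicate 3, and the osnat10 libraries gave 41.4% to 48.2%. The ratio of GLK1 to GLK2 was 2.25, 0.130 and 0.126 in WT and 0.929, 0.801 and 0.706 in osnat10. The difference in log2 ratio between genotypes was 1.03 (exact permutation p = 0.4, adjusted 0.5 over 5 ratios), with osnat10 inside the WT range. Without WT replicate 1, which keeps only the low WT ratios, the difference was 2.26 (exact permutation p = 0.2).

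**Figure D3:**
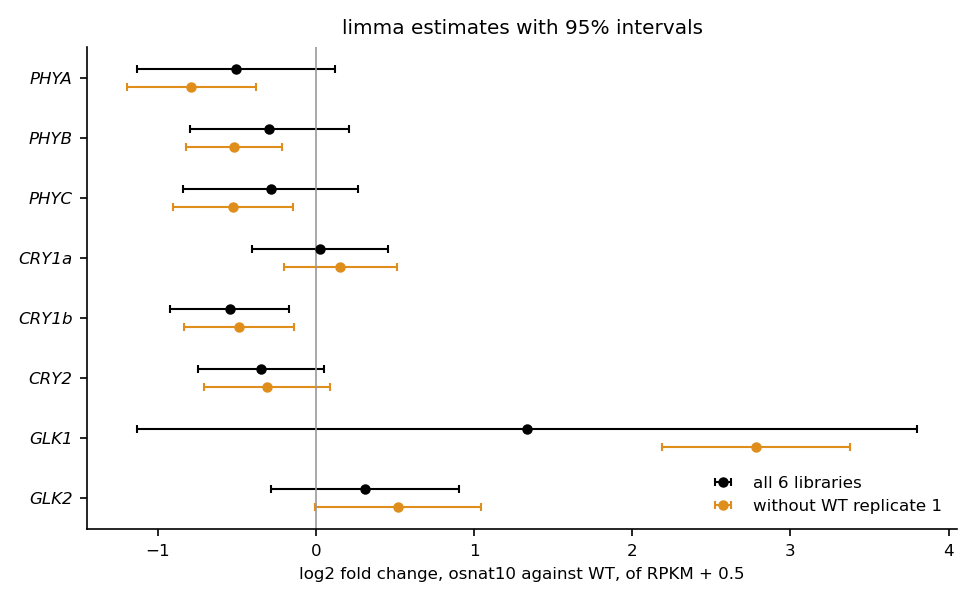
log2 fold change of osnat10 against WT for each gene in limma, with 95% intervals, from all 6 libraries (black) and without WT replicate 1 (orange). The GLK1 interval runs from -1.13 to 3.80 with all libraries and from 2.19 to 3.38 without WT replicate 1, while the CRY1b estimates are -0.54 and -0.48.

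Levels can be ranked because RPKM is scaled by gene length. In WT the order of mean RPKM was PHYB (24.6), PHYC (19.5), PHYA (15.9), CRY2 (15.3), CRY1b (15.0), GLK1 (12.8), GLK2 (12.2) and CRY1a (11.2), and the ranges of all neighbours in that order overlapped. The WT mean of GLK1 was near no WT library. GLK1 was the highest of the 8 members in WT replicate 1 (35.7) and the lowest in WT replicates 2 and 3 (1.06 and 1.56). In osnat10 the order was PHYB (19.6), PHYC (15.4), GLK2 (14.7), GLK1 (12.0), CRY2 (11.8), CRY1a (11.3), PHYA (10.6) and CRY1b (10.1). PHYB was above PHYC in osnat10 without overlap, and the other neighbours overlapped. The SD of log2(RPKM + 0.5) was larger in WT than in osnat10 for 8 of 8 members, as it was for 77.9% of all tested genes.

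Likeness to other genes was measured as the root mean square difference between log2(RPKM + 0.5) profiles over the 6 libraries, each centred on its own mean, among 11338 annotated genes with a mean RPKM of 5 or more. Among the members, PHYB and PHYC were closest (0.13), then PHYA and PHYB (0.17), then CRY1b and CRY2 (0.19). GLK1 was at least 1.34 from any other member, and its nearest member was GLK2. With so many candidates and 6 libraries, close matches are a description of these libraries.

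The nearest profile to GLK1 was ASCAB9-A, annotated after an oat chlorophyll-binding protein gene, at 1673, 62.6 and 62.5 RPKM in WT and 457 to 488 RPKM in osnat10 (difference 0.26). Next came OsLOX1, annotated as similar to a chloroplast lipoxygenase, at 40.6, 0.565 and 1.37 RPKM in WT and 6.95 to 10.3 RPKM in osnat10 (0.27). These genes share with GLK1 the high value in WT replicate 1 and the low values in WT replicates 2 and 3. GLK2 was nearest to Os03g0847900, a PAK-box domain gene (0.071), and to OsARF15, an auxin response factor gene (0.080).

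The receptors had closer matches of unrelated annotation. PHYA was nearest to LMR, an AAA-type ATPase gene (0.030), and OsRLCK101, a kinase gene (0.051). PHYB was nearest to SRWD2, a WD40 gene (0.038), and OsRFP, a zinc finger gene (0.038), and PHYC to OsEXO70B1 of the exocyst (0.045) and OsC3H8, a CCCH zinc finger gene (0.046). CRY1a was nearest to OsISC12, annotated as similar to a nitrogen fixation like protein (0.023), and to Os06g0638000, another CCCH zinc finger gene (0.039). CRY1b was nearest to Os10g0499400, a cystathionine beta-synthase domain gene (0.049), and Os12g0630700, similar to a NONA protein (0.061), and CRY2 to Os08g0117100, a nucleotide-binding domain gene (0.040), and Os04g0507800, a methyltransferase family gene (0.045).

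Other genes were taken as 13 lists of 148 genes by words in their symbols and descriptions. The lists cover light signalling and greening, with Rubisco small subunit, root marker and clock genes as markers of tissue and time of day, and 135 of the genes passed the filter on low values. None of the 135 was called between genotypes in limma with all libraries (against 0.152% of all tested genes). Without WT replicate 1, 44 of the 135 were called (against 11.1% of all tested genes), 5 of them root markers. In that fit, here and for each list below, the genotypes cannot be told apart from the unequal WT libraries. Without WT replicate 3, 1 of the 135 was called (against 4.04% of all tested genes), the Rubisco small subunit gene RbcS1, named after its values were seen (4.01, 4.36 and 21.3 RPKM in WT, 12.3 to 25.4 in osnat10). In the authors' deposited table some of the 135 did pass the same threshold, as 6.20% of the genes there did. Lower in osnat10 were OsBBX19 (adjusted p = 0.0022), OsBBX1 (0.0039), HD3B (0.0080), OsBBX8 (0.024), OsBBX26 (0.028), OsPCL1 (0.036), Os01g0186200 (0.047) and Os_F0793 (0.049). Higher were OsPorA (0.0077), RCc2 (0.011) and RCc3 (0.039). Of these, OsBBX19, OsPCL1, RCc2 and RCc3 were named by rule and the others after their values were seen.

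Upstream of phytochrome action, the 3 chromophore synthesis genes had positive log2 fold changes, with a median of 0.30. SE5, the heme oxygenase needed for the bilin, measured 104, 57.4 and 59.2 RPKM in WT and 72.9, 76.0 and 73.6 RPKM in osnat10, with osnat10 inside the WT range. OsHO2, a second heme oxygenase, stood at 50.3 ± 9.55 and 61.5 ± 0.731 RPKM (adjusted p = 0.38). Se13, the phytochromobilin synthase, stood at 14.6 ± 4.05 and 20.3 ± 4.08 RPKM (adjusted p = 0.32).

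Of 9 phototropin, ZTL-type and UVR8-like receptor genes, 5 were positive and 4 negative (median 0.00). The 3 most abundant were the UVR8-like Os04g0435700 (82.1 ± 14.3 RPKM in WT and 77.1 ± 2.44 in osnat10), the phototropin gene Os04g0304200 (51.1 ± 17.0 and 42.7 ± 4.56) and OsZTL2 (39.0 ± 4.26 and 39.0 ± 2.45). Without WT replicate 1, FKF1, a blue-light receptor of flowering time, was the 1 of these 9 called, lower in osnat10 (2.61, 8.59 and 6.61 RPKM in WT, 3.70 to 4.02 RPKM in osnat10). In that fit 11.1% of all tested genes were called, a share like that of 1 in 9, and FKF1 was named after its values were seen. The 4 photolyase relatives had a median of -0.02. Their 3 most abundant were PHR2 (64.0 ± 12.9 and 67.0 ± 1.84 RPKM), Os03g0784000 (15.8 ± 3.91 and 14.2 ± 1.89) and the cryptochrome DASH gene Os06g0661800 (6.90 ± 3.28 and 6.82 ± 0.572).

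Among partners of the receptors, 2 of 6 phytochrome-interacting factor-like bHLH genes were positive and 4 negative (median -0.23). OsbHLH099 stood at 20.4 ± 4.14 and 21.2 ± 0.694 RPKM, OsPIF14 at 13.0 ± 3.33 and 7.91 ± 2.57 RPKM, and PIL15 at 9.50 ± 0.685 and 8.64 ± 2.14 RPKM. The COP1, DET1 and COP9 signalosome list had 6 positive and 5 negative of 11 genes (median 0.04). Its 3 most abundant were signalosome subunits, Os07g0490800 (34.8 ± 2.47 and 36.5 ± 1.77 RPKM), Os01g0279200 (26.7 ± 0.802 and 26.3 ± 1.41) and Os03g0197400 (24.0 ± 5.29 and 24.4 ± 1.38). PPS, the rice counterpart of COP1 (picked with its values known), measured 28.8, 12.3 and 13.8 RPKM in WT and 23.5, 22.4 and 22.4 RPKM in osnat10, between the WT extremes.

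Of 16 tested FAR1 and FHY3 related genes, whose Arabidopsis counterparts act in phytochrome A signalling, 5 were positive and 11 negative (median -0.10), compared with 59.9% positive among all tested genes. Os03g0255400 stood at 22.5 ± 3.49 and 17.8 ± 2.24 RPKM, Os03g0777700 at 16.0 ± 1.06 and 12.9 ± 0.741 RPKM, and Os03g0255000 at 10.4 ± 1.45 and 10.9 ± 0.615 RPKM. Of the 16, 3 lay lower in every osnat10 library than in every WT library, against 7.79% of all tested genes.

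HY5-like bZIP and B-box factors, a list that also takes in genes annotated as CONSTANS-like or Hd1-like, were uneven within WT. WT replicate 1 was above WT replicates 2 and 3 in 17 of 25 tested genes (against 23.9% of all tested genes), and in 10 of these the osnat10 libraries all lay between (against 3.70%). Without WT replicate 1, 7 of the 25 were called higher in osnat10 (against 6.28% of all tested genes) and 3 lower (against 4.84%). The B-box gene OsBBX4 measured 134, 27.0 and 23.4 RPKM in WT and 77.4, 77.1 and 70.1 RPKM in osnat10, the pattern of GLK1 at a smaller range. OsBBX20 measured 95.1, 33.3 and 7.97 RPKM in WT and 56.3 to 76.9 RPKM in osnat10. OsBBX19 differed from these, at 43.7, 64.7 and 52.1 RPKM in WT and 34.1, 34.8 and 32.3 RPKM in osnat10, below every WT library (limma adjusted p = 0.13, and 0.0022 in the authors' deposited table).

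The GARP list, relatives of GLK by their DNA-binding domain, held OsPCL1 (46.5, 117 and 103 RPKM in WT, 40.5 to 56.5 in osnat10) and RL9 (0.249, 1.34 and 1.10 RPKM in WT, 1.20 to 2.13 in osnat10). Neither was called with all libraries (against 0.152% of all tested genes), and neither was high in WT replicate 1 as GLK1 was. OsPCL1 had a log2 fold change of -0.86 (limma adjusted p = 0.23). Without WT replicate 1, which leaves the higher WT values, it was called lower at -1.27 (limma adjusted p = 0.011), and the authors' deposited table gives -1.02 (adjusted p = 0.036).

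Most antenna genes, a kind that GLK proteins activate in Arabidopsis, had the GLK1 pattern. Genes of other kinds, such as OsLOX1 and OsBBX4, had it too, and a link to GLK1 was not tested. Of 16 tested antenna genes, WT replicate 1 was above WT replicates 2 and 3 in 15 (against 23.9% of all tested genes), and the osnat10 libraries all lay between in 13 (against 3.70%). They summed to 14440 RPKM in WT replicate 1, to 996.5 RPKM in WT replicate 2 and to 683.9 RPKM in WT replicate 3, while osnat10 libraries summed to 4420 to 4886 RPKM. The 3 most abundant antenna genes, Lhcb1.1, CAB2R and CP29, stood at 3096, 1992 and 1492 RPKM in WT replicate 1 and at 131 to 364, 22.3 to 24.8 and 133 to 145 RPKM in WT replicates 2 and 3. With all 6 libraries 0 of the 16 were called in either direction (against 0.152% of all tested genes). Leaving out WT replicate 1 keeps only the lower WT values for 15 of the 16. In that fit 11 of the 16 were called higher in osnat10 (against 6.28% of all tested genes) and 0 lower (against 4.84%). There the genotypes cannot be told apart from the unequal WT libraries.

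Chlorophyll synthesis enzymes shared this in part, with WT replicate 1 highest among WT in 9 of 16 tested genes (against 23.9% of all tested genes) and osnat10 between in 5 (against 3.70%). OsCRD1, of the cyclase step, measured 537, 57.6 and 98.5 RPKM in WT and 220 to 252 RPKM in osnat10, and LYL1, which reduces the phytol chain, measured 271, 39.1 and 55.0 RPKM in WT and 145 to 146 RPKM in osnat10. ELL, the ChlI subunit of magnesium chelatase, did not follow (253, 109 and 194 RPKM in WT, 141 to 181 in osnat10). Of the 16, 7 were called higher in osnat10 without WT replicate 1 (against 6.28% of all tested genes) and 0 lower (against 4.84%). That fit leaves out the highest WT value of 9 of the 16, so the genotypes cannot be told apart from the unequal WT libraries. Near-identical copies are frequent among antenna and Rubisco small subunit genes, and their values are uncertain to the extent that the authors' counting split reads between copies.

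The clock genes as a list did not share one pattern. WT replicate 1 was above WT replicates 2 and 3 in 6 of 15 tested genes (against 23.9% of all tested genes) and below them in 8 (against 52.3%). The osnat10 libraries lay between in 2 of the former (against 3.70%) and in 2 of the latter (against 8.09%). CCA1, a clock gene that peaks in the morning, measured 162, 3.71 and 2.52 RPKM in WT and 62.3, 50.3 and 50.9 RPKM in osnat10, highest in WT replicate 1 and lowest in the other WT libraries, as GLK1 was. LHY, named after its values were seen, had the same order (40.3, 4.25 and 3.3 RPKM in WT, 16.4 to 20.0 in osnat10). GI and OsPCL1, which peak later in the day, were lower in WT replicate 1 than in the other WT libraries, with GI at 72.6, 198 and 178 RPKM in WT and 93.8, 98.9 and 88.4 RPKM in osnat10. The 3 phytochromes also had their lowest WT value in WT replicate 1, as 52.3% of all tested genes did. Of the 15 clock genes, 6 were positive and 9 negative between genotypes (median -0.20) and 0 were called, while 3 were called higher (against 6.28% of all tested genes) and 5 lower (against 4.84%) without WT replicate 1. The labels give no hour of sampling, and the part of the clock genes' differences in the GLK1 and phytochrome values was not tested.

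**Figure D4:**
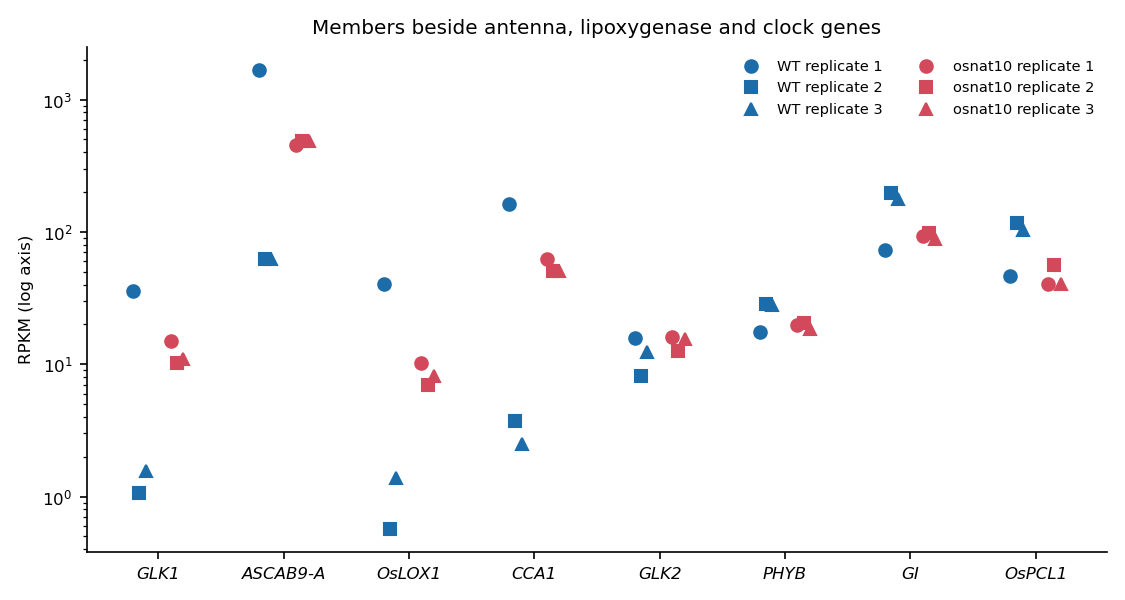
RPKM on a log axis of GLK1 and its nearest profiles ASCAB9-A and OsLOX1, the clock gene CCA1, then GLK2, PHYB and the clock genes GI and OsPCL1, with WT in blue and osnat10 in red and a marker shape per replicate. The first 4 genes are highest in WT replicate 1 and lowest in WT replicates 2 and 3 with osnat10 between, and PHYB, GI and OsPCL1 are highest in WT replicates 2 and 3.

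Across the members the position of WT replicate 1 differed from gene to gene. It was the lowest WT library for the 3 phytochromes (as for 52.3% of all tested genes), the highest for CRY1a, CRY1b, GLK1 and GLK2 (as for 23.9%), and between the other WT libraries for CRY2. The osnat10 libraries all lay between WT replicate 1 and WT replicates 2 and 3 for PHYB, PHYC, CRY1a and GLK1. WT replicate 1 was the low side for PHYB and PHYC (against 8.09% of all tested genes) and the high side for CRY1a and GLK1 (against 3.70%). CRY1b and CRY2, 2 of the 8, had no overlap between genotypes, a share equal to the 25.0% of all tested genes.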

How the data were processed

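Per the file headers, the authors deposited RPKM values for 38978 genes in the 6 RNA-seq libraries. They also deposited their own comparison of osnat10 with WT, with a mean normalised signal, a log2 fold change with standard error, a Wald score (its sign was opposite to the fold change in all 32190 genes, and it was not used) and p-values. STAR 2.5.3a, DESeq2, deepTools and build IRGSP-1.0 are listed, without roles, in the submitters' processing notes. The counter and its strand setting were not given in the sources used here, so overlapping and antisense genes cannot be told apart. Reads were recovered from RPKM steps and the authors' mean signal, whole within 0.05 reads for 99.98% of values above 0.

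The 24380 genes that reached 0.5 RPKM in 3 or more libraries, among them all 8 members, entered limma 3.58.1 (R 4.3.3) as log2(RPKM + 0.5), with an intensity trend, no covariates and Benjamini-Hochberg adjustment. On this scale fold changes of low genes are understated. The fit was first tested on simulated data, with the mean of each gene and its spread pooled over both genotypes. Noise was drawn for each gene alone. The larger WT spread, and the shifts that genes shared in WT replicate 1, were thus not simulated. The fit called 11 of 67 genes given a 2-fold change (16.4%), 49 of 67 given a 4-fold change (73.1%) and 10 unchanged genes. A gene that was not called can therefore still have changed. Ratios within libraries were tested by exact permutation (scipy 1.17.1). Named genes were the 8 members, the 3 most abundant tested genes of each list, the 2 nearest profiles per member and the root markers RCc2, RCc3, LSI1 and LSI2 of the tissue check; others are marked as chosen after their values were seen. The authors' 3 replicates per genotype are labelled biological. Members and lists were chosen with earlier results of these data known. Alternatives were other pseudocounts, filters, scalings, array weights, a replicate block and leaving out each library.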

Additional observations from a re-analysis of the deposited data

How the results depend on the processing

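No member changed its call under another pseudocount, filter, scaling, array weights or the replicate block. Leaving out a library gave 0 to 3 called members and 0 to 44 called list genes. Directions held in all 14 alternatives for 7 members, but every alternative was fitted on a log2 scale. GLK1 is among these members, and its sign was opposite in the arithmetic means and in the authors' deposited value (-0.35). CRY1a turned to -0.077 under median of ratios scaling, -0.082 after quantile normalisation, and -0.0040 and -0.014 without WT replicate 3 and osnat10 replicate 2. Over the 6 fits without a library it ran from -0.072 to 0.1553. The PHYC to PHYB difference turned to -0.0077 and -0.050 without WT replicate 1 and osnat10 replicate 3, with a range of -0.082 to 0.11 over those fits. The cause was not tested.

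Over all genes, 30 were called higher and 7 lower, compared with 51 and 57 under median of ratios scaling (which moved the median log2 fold change of all genes from 0.11 to 0.01), 28 and 24 after quantile normalisation (median -0.03), 843 and 509 with array weights (0.27 for WT replicate 1), 19 and 6 at a pseudocount of 0.1, and 20 and 6 with the stricter filter. Leaving out a library gave 8 to 1532 higher and 0 to 1181 lower. Replicate numbers shared no origin in the labels, and deviations of same-numbered libraries correlated at -0.059, -0.026 and 0.126; with the replicate block 16 genes were called higher and 4 lower. With 3 libraries per genotype, the 95% intervals of the members' log2 fold changes were 0.75 to 4.93 wide.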
